A study of Homo sapiens with 4 samples.

Results

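In FTO knockdown RWPE1 cells, 654 m6A peaks were wider than the peak of control cells that they overlapped. Most of them kept an edge at the very same base and reached further along the genome on the other side. These widened peaks were chosen by their width in the peak lists of the study. A peak of the knockdown list and a peak of the control list were paired when they overlapped by at least 1 bp on either strand, pairs in which each peak had exactly 1 partner were kept, and a pair was a member when the knockdown peak was the wider one. The members were 654 of 1994 such pairs. In all, the knockdown list held 10323 peaks and the control list 10087. The width of a peak, its gain and the share of pairs that gained are therefore values that the choice itself used. They are given below as a description and were not tested.

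The m6A mark is a methyl group on adenosine in RNA, and it is the most abundant internal mark of mRNA. It is placed during transcription by a complex around METTL3 and METTL14, mostly within the short DRACH consensus, and it is frequent in long internal exons, around stop codons and in 3′ untranslated regions. FTO and ALKBH5 remove it, and reader proteins of the YTH family bind it and act on splicing, translation and decay of the transcript. MeRIP-seq sequences the pieces of RNA that an m6A antibody captures, beside the input RNA, so a peak is a stretch of RNA with more reads after the capture, and its width reflects the fragments as well as the methylated bases beneath them.

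RWPE1 is a line of non-tumorous human prostate epithelium immortalized with human papillomavirus. The knockdown cells (shFTO, labelled sh) were infected with lentivirus that carries an shRNA against FTO, the control cells (shCtrl, labelled Ctrl) with lentivirus of the vector alone, and both were kept under puromycin as stable lines, with 1 shRNA used against FTO. Each condition had 1 IP and 1 input library, 4 libraries in all, so no difference between the conditions has a replicate check and no P value is given. Intervals are 95% Wilson intervals for shares and order-statistic intervals for medians, and both cover counting error only. They treat each pair as 1 count, although peaks of 1 transcript are not independent. The lists hold no read counts, which leaves the depth of the libraries unknown. Positions are given with both ends included and counted from 1, in hg19, the build named in the submitters' processing notes. Widths and gains are spans on the genome, and whether they include introns was not determined. The gene table used here is of another build, so neither genes nor exons, introns and untranslated regions were assigned to the peaks, the level of FTO was not checked, and no epithelial marker was examined.

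The members varied widely in their control width and, as the rule requires, spanned more of the genome after FTO knockdown. The control peak was at most 200 bp wide in 126 of them. Their width ranged from 12 to 6212 bp in shCtrl cells, with a median of 466.5 bp (430 to 504 bp). In shFTO cells it ranged from 45 to 6795 bp, with a median of 756 bp (674 to 835 bp). The summed width was 444792 bp in control and 708901 bp in knockdown cells, 1.59 times as much. The whole lists differed in the same direction, so a greater width was not a feature of the members alone. All peaks of the control list covered 4121647 bp, with a median width of 212 bp. Those of the knockdown list covered 5526716 bp, with a median of 242 bp. Pairs wider in knockdown cells made up 32.8% of the 1994 pairs, and pairs wider in control cells, 226 in number, made up 11.3%. The remaining 1114 pairs had the same width in both lists, with a median of only 187.5 bp. The plot of paired widths shows the members above the diagonal over the whole range of control widths.

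**Figure D1:**
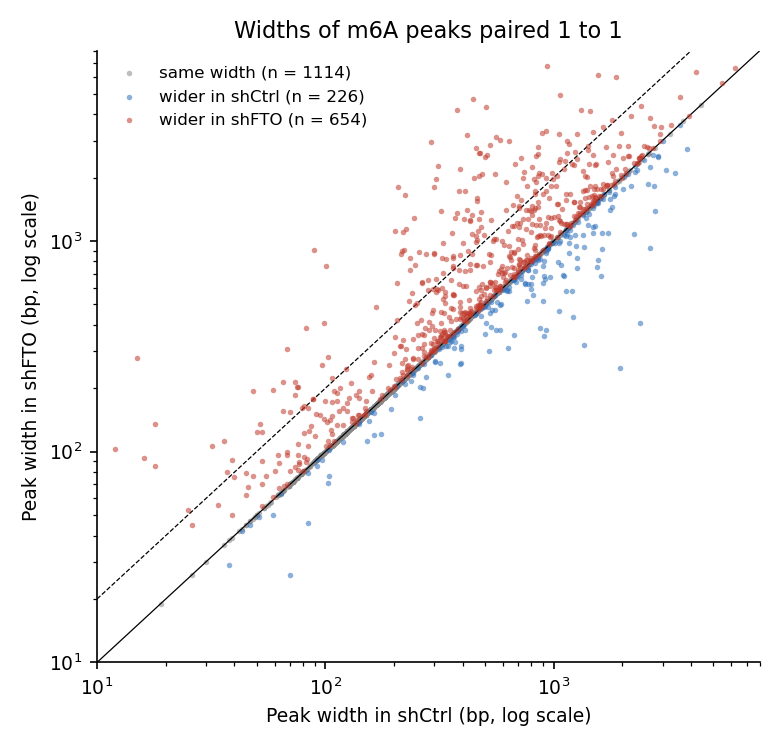
Width of each m6A peak in shFTO cells (vertical axis, bp, log scale) against the width of its partner in shCtrl cells (horizontal axis, bp, log scale) for the 1994 pairs, with 1 point per pair. The solid line marks equal width and the dashed line 2 times the control width; the 654 red points lie above the solid line by the rule that chose them, and 165 of all points lie on or above the dashed line.

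The gain in width, which is the knockdown width minus the control width of a pair, was small in most members and large in a few. It ranged from 1 to 5863 bp with a median of 114 bp (96 to 137 bp), and its lower and upper quartiles were 32 and 479 bp. The median ratio of widths was 1.32 (1.26 to 1.38). In 196 members the knockdown peak was under 1.1 times as wide, and in 165 it was at least 2 times as wide, which is 25.2% of the members and 8.27% of all pairs. Among the 226 pairs wider in control cells, the control peak was at least 2 times as wide in 16, or 7.08%. A gain over 1000 bp was seen in 82 members, and these 12.5% of the members carried 57.8% of the summed gain of 264109 bp. The 64 largest gains alone made up 50% of it, whereas the 71 members that gained from 1 to 10 bp carried 0.136%.

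Small differences in width occurred in both directions, and large ones lay mostly on the side of the knockdown list. With a difference of 1 to 10 bp there were 71 pairs wider in knockdown cells and 50 wider in control cells, a ratio of 1.42. For differences of 11 to 50 bp the numbers were 148 and 68, and for 51 to 200 bp they were 169 and 51. From 501 to 1000 bp, 75 pairs were wider in knockdown and 16 in control cells, and above 1000 bp the numbers were 82 and 8, a ratio of 10.25. The median difference was 114 bp for the members and 44.5 bp for the pairs wider in control cells.

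**Figure D2:**
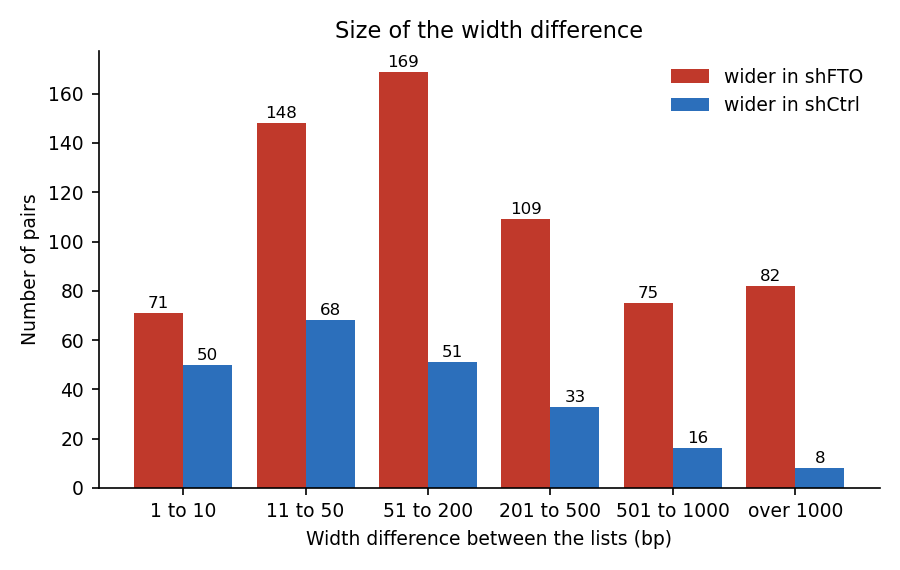
Number of pairs (vertical axis) by the size of the width difference between the lists (horizontal axis, bp), for pairs wider in shFTO cells (red) and pairs wider in shCtrl cells (blue). The red bars exceed the blue ones in every class, from 71 against 50 pairs at 1 to 10 bp to 82 against 8 pairs above 1000 bp.

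How often a shared peak was wider after FTO knockdown varied with its width in control cells, and it was lowest for peaks of 101 to 200 bp. Of these, 53 of 537 pairs were widened, or 9.87% (7.62% to 12.7%), and 87.7% had the same width in both lists. Shorter control peaks of up to 100 bp were widened in 73 of 228 pairs, or 32.0% (26.3% to 38.3%). From 201 to 300 bp the share was 31.4% (26.1% to 37.3%), and from 301 to 500 bp it was 46.3% (40.8% to 51.9%). It then stayed near that level, with 44.6% at 501 to 1000 bp, 48.6% at 1001 to 2000 bp and 44.9% (33.8% to 56.6%) above 2000 bp. Pairs wider in control cells were also least frequent at 101 to 200 bp, with 2.42% against 5.26% below and 5.36% at 201 to 300 bp, and their share then rose to 33.3% above 2000 bp (31 pairs wider in knockdown against 23 wider in control cells). Among the members, the median gain was 42 bp for control peaks of up to 100 bp and 275 bp for those of 1001 to 2000 bp, and the median ratio fell from 1.70 to 1.18 between the same classes.

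**Figure D3:**
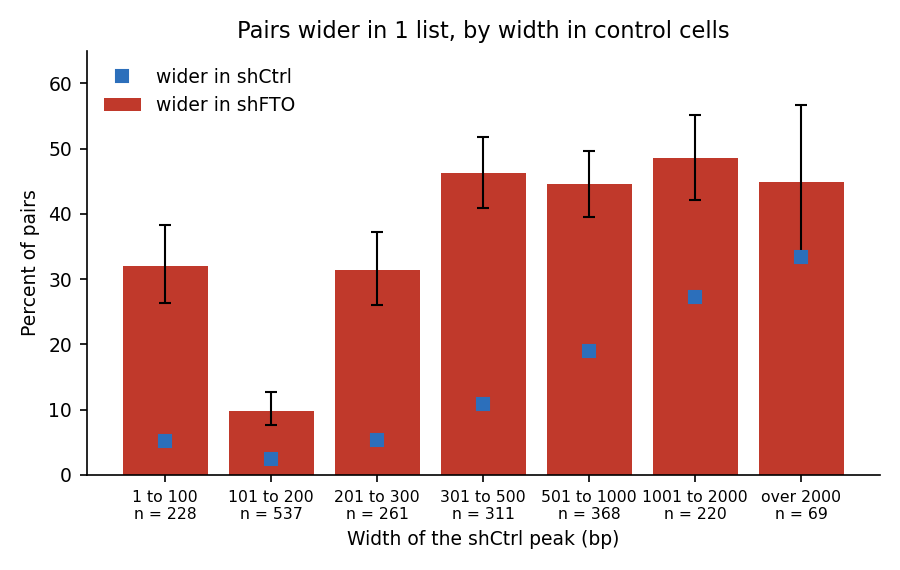
Percent of pairs (vertical axis) whose peak was wider in shFTO cells (red bars, with 95% Wilson intervals) or in shCtrl cells (blue squares), by the width of the control peak (horizontal axis, bp, with the number of pairs). The share wider in shFTO cells was lowest, at 9.87%, for control peaks of 101 to 200 bp, and lay between 44.6% and 48.6% above 300 bp.

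The widened peaks mostly enclosed the control peak, and pairs wider in control cells were nested about as often. In 599 of 654 members, or 91.6% (89.2% to 93.5%), the control peak lay wholly inside the knockdown peak. In 488 members, or 74.6% (71.1% to 77.8%), 1 edge was at the same base in both lists and the other edge had moved outwards. Both edges had moved outwards in 111 members, 17.0%. In the other 55 members, 8.41%, the knockdown peak reached further at 1 edge and less far at the other, where it fell short by a median of 58 bp and by 4 to 1057 bp. The pairs wider in control cells were read with the lists exchanged. The narrower peak lay wholly inside the wider one in 200 of 226 pairs, or 88.5% (83.7% to 92.0%). These pairs had 1 edge at the same base in 183 of 226, or 81.0% (75.4% to 85.6%), and moved outwards at both edges in 17, or 7.52%.

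Narrow and wide members differed in this respect. All 126 members whose control peak was at most 200 bp wide had 1 edge at the same base in both lists. Of the 528 members with a wider control peak, 362 or 68.6% did. The narrowest control peak of the 166 members in which both edges differed was 201 bp wide, and the narrowest knockdown peak among them was 244 bp wide. The same was seen in the pairs wider in control cells, where all 27 pairs with a knockdown peak of at most 200 bp had an edge in common and the narrowest knockdown peak with both edges different was 227 bp wide. A limit at 200 bp was chosen after these widths were seen. Whether the common edges lie at exon ends was not determined, since an annotation of the build was not used here.

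Read along the strand of the RNA, members with a common edge gained more often at the 3′ side of the control peak than at the 5′ side. Of the 488 members with a common edge, 322 or 66.0% (61.7% to 70.0%) reached further in the 3′ direction and 166 in the 5′ direction. The share was the same on both strands, with 160 of 243 members on the plus strand (65.8%) and 162 of 245 on the minus strand (66.1%), which are read in opposite directions along the chromosome. The median gain was 100.5 bp in members that gained at the 3′ side alone, 51.5 bp in members that gained at the 5′ side alone and 480 bp in members that gained at both. Gains at the 3′ side alone made up 45.2% of the summed gain, gains at both sides 34.3% and gains at the 5′ side alone 11.1%. Among the 111 members that gained at both sides, the 3′ gain was the larger one in 50, or 45.0% (36.1% to 54.3%). Of the 55 shifted members, 34 reached further at the 5′ side and 21 at the 3′ side. The former carried 7.71% of the summed gain with a median gain of 426.5 bp, the latter 1.65% with a median of 83 bp.

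The 3′ side was the more frequent one in the pairs wider in control cells too. Of the 183 pairs wider in control cells with a common edge, the difference lay at the 3′ side in 121, or 66.1% (59.0% to 72.6%). Among the members, the share varied with the size of the gain. With gains of 1 to 10 bp, 35 of 67 members with a common edge gained at the 3′ side, or 52.2% (40.5% to 63.7%). With gains of 201 to 500 bp it was 51 of 67, or 76.1% (64.7% to 84.7%), and with gains of 501 to 1000 bp 34 of 39, or 87.2% (73.3% to 94.4%). Grouped at 200 bp, the share was 59.1% (53.7% to 64.2%) for the smaller and 81.5% (74.5% to 86.8%) for the larger gains. In pairs wider in control cells the corresponding shares were 65.8% (57.7% to 73.0%) and 67.6% (51.5% to 80.4%), the last of them over 37 pairs, and the difference between the directions was not tested.

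**Figure D4:**
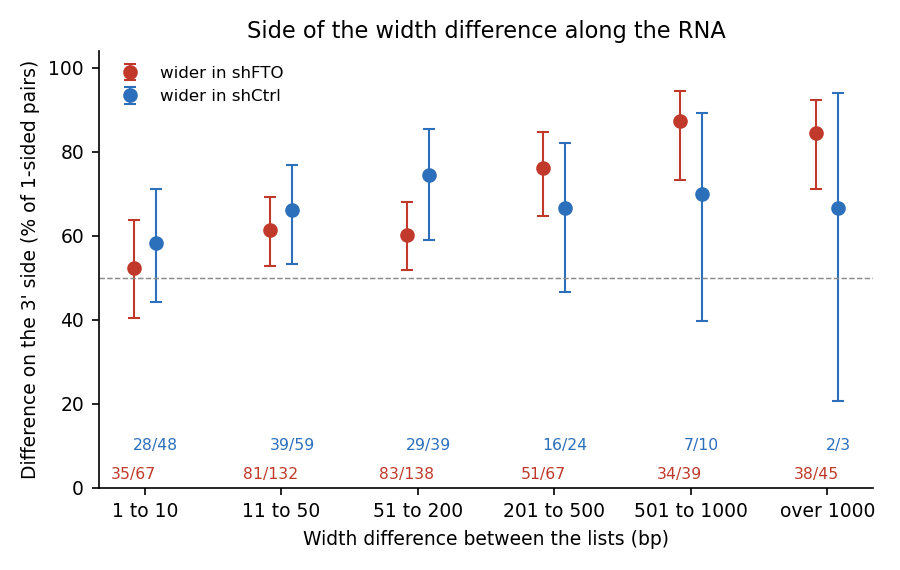
Percent of pairs with a common edge in which the width difference lay at the 3′ side of the RNA (vertical axis, with 95% Wilson intervals), by the size of the difference (horizontal axis, bp), for pairs wider in shFTO cells (red) and in shCtrl cells (blue). The numbers above the axis are the pairs with a 3′ difference over all pairs with a common edge, and the dashed line marks 50%; the red points run from 52.2% at 1 to 10 bp to 87.2% at 501 to 1000 bp.

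The side also went with the width of the control peak. Gain and control width went together, with a median control width of 298 bp at gains of 1 to 10 bp and 856 bp at gains above 1000 bp. The part of each in the shares at the 3′ side was not tested. Among members with a common edge, the gain was at the 3′ side in 55 of 126 with a control peak of at most 200 bp, or 43.7% (35.3% to 52.4%). The share was 59.7% at 201 to 500 bp, 81.1% at 501 to 1000 bp and 88.7% (80.8% to 93.5%) above 1000 bp, where 86 members gained at the 3′ side and 11 at the 5′ side. In pairs wider in control cells it rose as well, from 10 of 25 pairs to 83.9% (72.2% to 91.3%) over 56 pairs. These pairs were also grouped by the control peak, which is the wider peak there and the narrower one in the members. Members with a common edge and a wide control peak thus gained mainly downstream. For those with a short control peak the interval held equal shares of both sides.

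The 10 members with the largest gain grew by 2684 to 5863 bp and carried 14.6% of the summed gain. The largest lay on the plus strand of chromosome 20, where a control peak of 932 bp from 3849360 to 3850291 stood inside a knockdown peak of 6795 bp from 3849347 to 3856141. Its 5′ edge moved by 13 bp and its 3′ edge by 5850 bp, so this member counted as gaining at both sides although almost all of the gain was downstream. Its score, which is read here only as a rank within a list, was at percentile 30.9 of the control and 73.1 of the knockdown list.

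Chromosome 7 held 3 of these 10 members. On its minus strand, the peak that ends at 5521562 in both lists was 1564 bp wide in control cells and 6129 bp in knockdown cells, with all 4565 bp gained at the 3′ side. Also on the minus strand, the peak that ends at 1586817 in both lists was 1067 bp and 4947 bp wide. These members shared their 5′ edge to the base. The remaining one, on the plus strand, went from 1877 bp (4805934 to 4807810) to 6031 bp (4801815 to 4807845), and here 4119 bp were gained upstream and 35 bp downstream.

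A gain at the 3′ side with a fixed 5′ edge was also seen on chromosome 17 and chromosome 11. On the minus strand of chromosome 17, a control peak of 442 bp from 652150 to 652591 lay in a knockdown peak of 4729 bp that began at 647863, and its score percentile was 41.8 points higher in knockdown than in control cells. On the plus strand of chromosome 11, the peak that starts at 118392612 in both lists was 1438 bp wide in control cells and 4122 bp in knockdown cells.

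The other members of this group, all on minus strands, gained mainly upstream with 1 exception. On chromosome 1, a control peak of 377 bp from 42047261 to 42047637 lay in a knockdown peak of 4197 bp from 42046793 to 42050989, with 3352 bp gained at the 5′ side and 468 bp at the 3′ side. On chromosome 10, a control peak of 507 bp from 61548579 to 61549085 lay in a knockdown peak of 4306 bp, with 3784 bp gained at the 5′ side. This peak was 8.49 times as wide in knockdown cells, and its score was at percentile 84.8 in control and 64.8 in knockdown cells.

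On chromosome 3, a control peak of 419 bp from 49756097 to 49756515 was met by a knockdown peak of 3172 bp that gained 2801 bp upstream and fell short by 48 bp downstream. The exception was on chromosome 10 too, where a control peak of 1323 bp from 118433329 to 118434651 lay in a knockdown peak of 4168 bp and 2567 bp were gained at the 3′ side against 278 bp at the 5′ side. Of the 10 members, 4 kept their 5′ edge at the same base, 5 were extended at both edges and 1 was shifted.

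By ratio of widths, among members with a control peak of at least 100 bp, the 10 highest ratios ran from 7.25 to 11.1. Of these, 5 are among the largest gains above, with the peak on chromosome 1 from 42046793 to 42050989 at the top and that on chromosome 17 next, at 10.7. The next was a member on the plus strand of chromosome 16 that gained 2659 bp at the 5′ side alone, from 290 bp (89807043 to 89807332) to 2949 bp.

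The other 4 were on chromosomes 2, 8, 9 and X. On the minus strand of chromosome 2, a control peak of 209 bp and a knockdown peak of 1812 bp (39211645 to 39213456) overlapped by little, since the latter fell short by 203 bp at the 3′ side. On the minus strand of chromosome 8, a control peak of 101 bp that ends at 93898963 in both lists became 759 bp wide by a gain at the 3′ side. On the plus strand of chromosome 9, a control peak of 223 bp (137317123 to 137317345) became 1656 bp wide, and on the plus strand of chromosome X a control peak of 313 bp (152613979 to 152614291) became 2269 bp wide. The members on chromosomes 8 and 9 had a lower score percentile in knockdown than in control cells, with 22.9 against 35.9 and 10.9 against 30.3. Those on chromosomes 2 and X had a higher one, with 69.8 against 55.7 and 74.2 against 22.99.

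In 3 members, the peaks of the pair were listed on opposite strands, and no such pair was found among the pairs of equal width or those wider in control cells. They lay on chromosome 1 (knockdown peaks from 45809555 to 45811230 and from 226033233 to 226034633) and chromosome 16 (67182005 to 67184574), with the control peak on the plus and the knockdown peak on the minus strand. Each of them was shifted, with the control peak reaching beyond the knockdown peak by 386 to 1057 bp. They were counted as members by the rule and make up 2839 bp, or 1.07%, of the summed gain.

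Within each list, the wider peaks of members held the higher scores, but the members did not in general rise in rank from the control to the knockdown list. The scores of the lists are not known to be on a common scale, so each peak was given its percentile within its own list. A score of exactly 3100 was held by 406 peaks of the control and 611 of the knockdown list. These ties were at percentile 97.8 in the control and 96.8 in the knockdown list. A pair at 3100 in both lists therefore counted as lower in knockdown cells by the ties alone. The Spearman correlation of width with percentile over the 654 members was 0.49 in the control and 0.48 in the knockdown list, and 0.40 and 0.39 over the 1114 pairs of equal width. The median percentile of the members was 62.9 (59.9 to 66.9) in control and 55.7 (51.9 to 61.2) in knockdown cells. The percentile was higher in knockdown cells in 262 of 654 members, or 40.1% (36.4% to 43.9%), close to the 39.3% found over all 1994 pairs. It was 39.0% in the pairs of equal width and 38.9% in the pairs wider in control cells. Within the members, the Spearman correlation between the gain in bp and the difference in percentile was 0.14 over the 654 pairs, which share the 2 lists and with them their depth.

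Members with the largest gains more often had the higher percentile in knockdown cells. Where the gain was over 1000 bp, the percentile was higher in knockdown cells in 49 of 82 members, or 59.8% (48.9% to 69.7%), with a median difference of 4.84 percentile points. In each class of smaller gains the share lay between 35.2% and 39.4%, and the median difference was between -5.63 and -3.43 points. The classes were set after the gains were known. In the opposite direction, the percentile was higher in control cells in 4 of the 8 pairs that were wider there by more than 1000 bp.

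**Figure D5:**
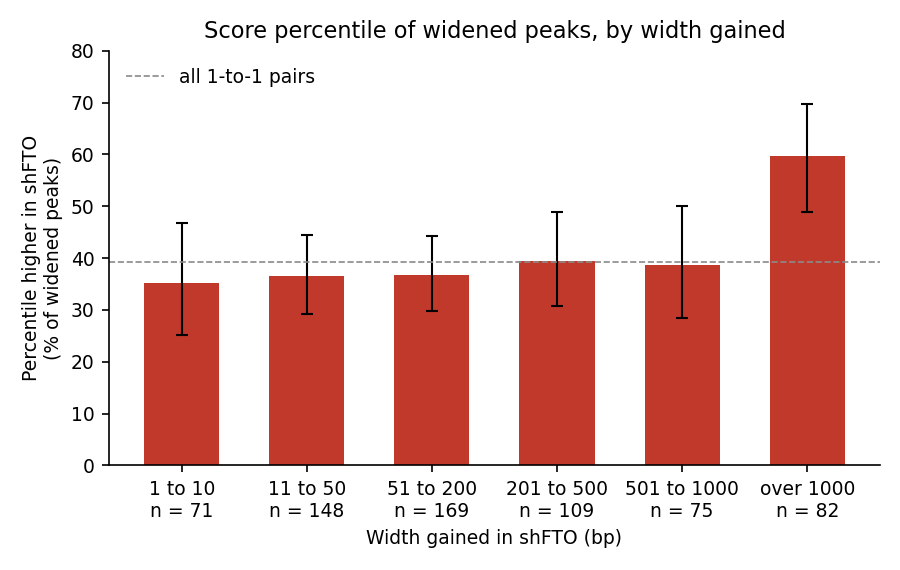
Percent of widened peaks with a higher score percentile in the shFTO list than in the shCtrl list (vertical axis, with 95% Wilson intervals), by the width gained (horizontal axis, bp, with the number of pairs). The dashed line gives the 39.3% found over all 1994 pairs; the bars lie between 35.2% and 39.4% up to a gain of 1000 bp and at 59.8% above it.

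Strong and weak control peaks were both widened, and weak ones grew more in proportion. Among paired control peaks up to percentile 20 of the control scores, 76 of 194 were widened, or 39.2% (32.6% to 46.2%), and above percentile 80 it was 196 of 628, or 31.2% (27.7% to 34.9%). The median ratio of widths was 1.63 in the members up to percentile 20 and 1.13 in those above percentile 80, whose control peaks were wider, with a median of 865.5 bp against 295.5 bp. The median gain was 109.5 bp in the former and 123.5 bp in the latter. The Spearman correlation of the ratio, knockdown over control, with the control percentile was -0.25 in the members. In the pairs wider in control cells it was 0.23, so weak peaks differed more in proportion there too. A score of 3100 or more was held by 27 members in control and 38 in knockdown cells. The same tilt was seen in the pairs of equal width, with 69 and 91, and in the whole lists, with 427 and 639 peaks, so it was not a feature of the members alone. The pairs wider in control cells went the other way, with 18 in control and 14 in knockdown cells. Among members with a common edge, the share with a gain at the 3′ side did not rise steadily with the score. It was 33 of 54, or 61.1% (47.8% to 73.0%), up to percentile 20, and 47.4% from 20 to 40. From 40 to 60 it was 59.4%, and from 60 to 80 it was 73.2%. Above percentile 80 it was 123 of 169, or 72.8% (65.6% to 78.9%), and this interval overlaps that of the lowest class. Stronger control peaks were also wider, and the part of width in these shares was not tested.

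The 5 members with the highest knockdown scores below 3100 all kept their 5′ edge at the same base and gained at the 3′ side. The first of them, on the minus strand of chromosome 6, ends at 30514090 in both lists and grew from 362 to 832 bp, with scores at percentile 95.03 in control and 93.80 in knockdown cells. The next grew from 541 to 1002 bp on the minus strand of chromosome 4, where both peaks end at 3514763. On the plus strand of chromosome 19, the peak that starts at 11942183 in both lists grew from 2657 to 3834 bp, while the gains of the members on chromosome 15 (172 bp, common start at 93567602) and chromosome 11 (10 bp, common end at 1491718) were small.

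Just inside the limit of the rule lay 8 members with a gain of 1 bp. Their control widths ran from 80 to 1987 bp, and 1 edge was at the same base in each. Their percentiles by score differed between the lists by 0.85 to 64.0 points. A member on chromosome 6 of 80 and 81 bp, which starts at 71508360 in both lists, had a score at percentile 84.3 in control and 20.3 in knockdown cells. Just outside the limit lay the 1114 pairs of equal width and then 10 pairs that were 1 bp narrower in knockdown cells, with control widths from 43 to 1667 bp. Of the 8 members 3 had a higher percentile in the knockdown list, and of the 10 pairs just outside 2 did.

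Widened peaks were found on every chromosome with more than 3 pairs and on both strands alike. There were 324 members on the plus strand and 330 on the minus strand. They outnumbered the pairs wider in control cells on 23 of 24 chromosomes, the other being chromosome Y with 3 pairs and no member, which allows a share of up to 56.1% by its interval. Their share ran from 20.3% (12.9% to 30.4%) on chromosome 5, with 16 of 79 pairs, to 47.4% (27.3% to 68.3%) on chromosome 18, with 9 of 19 pairs. It was 42.4% (33.2% to 52.3%) on chromosome 10 and 47.0% (35.4% to 58.8%) on chromosome X. Over all pairs the share was 32.8%, and the intervals of 3 of the 24 chromosomes, namely 5, 10 and X, left it out. These shares describe the values that chose the members, and no difference between chromosomes was tested. Members with a gain at the 3′ side alone outnumbered those with a gain at the 5′ side alone on 22 of the 23 chromosomes that held a member, and chromosome 22 had 6 of each.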

How the data were processed

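Per the labels, MeRIP-seq libraries were made with a directional kit from IP and input RNA of RWPE1 cells. The submitters' processing notes name cutadapt 1.9.3, HISAT2 and hg19, without their settings. The authors deposited 1 peak list for each condition, with the position, strand, name and score of each peak. The names are in the form MACS writes; the caller's version and limits, and how the listed peaks were selected, are not given in the sources used here. The score has no stated scale, and its lowest value was 50.03 in the control and 50.05 in the knockdown list.

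Starts in the lists were read as counted from 0, so a width is the listed end minus the listed start, and 1 was added to each start for printing. Overlapping pairs numbered 2037, and 43 with a peak in several of them were left out. The edge nearer the 5′ end was taken from the strand of the knockdown peak. Pairing was tested on simulated lists of 4000 peaks, where all 600 widened pairs were recovered with their side and gain. Python 3.11.15, pandas 2.3.3 and SciPy 1.17.1 were used. Peaks named are the 10 largest gains, the 10 largest ratios with a control width of at least 100 bp, the 5 highest knockdown scores below 3100 and the pairs at the limit of the rule; the pairs on opposite strands were named after their values were seen. The members and classes were chosen with earlier results of these data known. For want of an annotation of the build, gene lists, exon ends, cell type markers and DRACH motifs were not analysed here. Alternatives were 8, and 1 added after seeing the data.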

Additional observations from a re-analysis of the deposited data

How the results depend on the processing

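Of the 50 values under alternative settings, 32 stayed within their 95% interval, within 1.5 times the reported count or, for the length ratio, at the same rounded value. Requiring a reciprocal overlap of 50% takes out the strongest extensions by construction and left 489 members, 27.0% of the pairs, with a median gain of 67 bp and a length ratio of 1.24. With scores at or above the median of each list there were 313 members, 30.2% of the pairs, with a median gain of 151 bp, a length ratio of 1.50, 93.9% nested and 59.7% that gained at the 3′ side alone. Requiring a gain of at least 10 bp gave 29.5%, 145.5 bp and 1.64, and at least 50 bp gave 21.9%, 304 bp and 1.75 for share, median gain and length ratio. The length ratio was 1.60 with scores below 3100 and 1.60 after merging peaks within 100 bp. Edges within 10 bp, a setting added after seeing the data, were counted as the same base and gave 45.1% at the 3′ side alone against 49.2% reported. The count at 50 bp was 437 members, against a lower limit of 436 for a count called unchanged. In every alternative the pairs wider in knockdown cells outnumbered those wider in control cells. That is the width comparison of the rule itself, made on the same lists, and merging left it at 654 and 226 pairs.

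No paired analysis was possible because there is a single peak list per condition, which also leaves no replicate to omit. The settings for DRACH motifs and exon ends were not run, since they need the genome or annotation of the build. With the depth unknown, more reads in a library and more methylated RNA cannot be told apart as sources of a wider peak.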

Other observations

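Widened peaks lay further from other listed peaks of the same strand than shared peaks of equal width did. The nearest other peak of the control list was at a median of 31531 bp (27541 to 37493 bp) from the members, 13820.5 bp (12244 to 16282 bp) from the pairs of equal width and 40814 bp (32436 to 63984 bp) from the pairs wider in control cells. In the knockdown list the distances were 30706, 12480.5 and 33465.5 bp. Another control peak lay within 5000 bp of 115 members, or 17.6% (14.9% to 20.7%), and of 299 pairs of equal width, or 26.8% (24.3% to 29.5%). Within 1000 bp the shares were 3.98% and 3.41%. The pairs of equal width are also narrower, and the part of width in these distances was not tested.

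The counts of neighbouring shared peaks that were widened together are given here as a description, with no test of whether members cluster. Among 58 neighbours of the same strand at most 5000 bp apart, both were members in 3 cases, 1 alone was a member in 20, and both had equal width in 32. Within 100000 bp, there were 345 such neighbours, with both widened in 28 and with 1 widened and the other wider in control cells in 17. Whether neighbours belong to the same transcript was not determined.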
